A study of Homo sapiens with 6 samples.

Results

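Glycolysis and the response to low oxygen were followed through 34 genes, chosen by name from the 27958 genes of the deposited table. They are 15 genes of glycolytic enzymes, the 2 lactate dehydrogenase genes LDHA and LDHB, 3 genes of regulatory kinases (PFKFB3, PFKFB4 and PDK1), 4 genes of the oxygen-sensing system (HIF1A, EPAS1, EGLN1 and EGLN3) and 10 further genes known as targets of hypoxia-inducible factor (HIF). The cells were PC3, an established human prostate cancer line, labelled with an antibody to the receptor neuropilin-2 (NRP2) and separated by flow cytometry into an NRP2-high and an NRP2-low population, with 3 libraries each. After the sort the cells grew for up to 2 weeks, and RNA came from more than 1 passage; which passage each library came from is not given in the sources used here. The labels name no drug, gene edit or low-oxygen culture in either group. Both groups are cells of a single line, separated by the sort. Libraries are named by the numbers in the table, S38, S39 and S40 for NRP2-high and S35, S36 and S37 for NRP2-low.

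Glycolysis converts glucose to pyruvate, and lactate dehydrogenase then reduces pyruvate to lactate. Many cancer cell lines keep this route active when oxygen is present. HIF is a pair of proteins, an oxygen-labile alpha subunit (encoded by HIF1A or EPAS1) and a stable partner encoded by ARNT. Prolyl hydroxylases such as EGLN1 mark the alpha subunit for degradation when oxygen is present, so HIF activity is set mostly at the protein level, which RNA does not show.

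Values are TPM, a share of the transcripts of a library after division by gene length, with the same total in each library. Read totals per library were between 17551302 and 30726744, the lowest in S37. NRP2 itself was at 48.1, 42.5 and 16.6 TPM in NRP2-high and at 7.55, 5.10 and 2.71 TPM in NRP2-low, with a log2 fold change of 2.53 (limma, adjusted p = 0.0375, and between 0.0154 and 0.160 with 1 library left out). The epithelial keratins KRT8 and KRT18 and VIM were present in every library, EPCAM was at most 0.0726 TPM, and leucocyte, endothelial and fibroblast markers summed to at most 0.539 TPM per list. Library S37 differed from the rest in that 31.0% of its TPM lay in genes of the mitochondrial genome, beside 11.1% to 18.7% in the other 5.

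Of the 34 genes, 31 reached 1 TPM in 3 or more libraries and entered the test, which was fitted over 15214 genes. None of the 31 passed an adjusted p of 0.05 in limma with all 6 libraries, and 1 of them, EPAS1, had an unadjusted p under 0.05. Over all tested genes 0.835% passed the adjusted threshold, 0.348% higher and 0.486% lower in NRP2-high, and 7.0% had an unadjusted p under 0.05. The log2 fold changes of the 31 genes, NRP2-high over NRP2-low on the log2(TPM + 1) scale, had a median of 0.08, beside 0.10 over all tested genes. Of the 31, 21 were above 0 with TPM as deposited, 15 with mitochondrial genes left out and 12 with the libraries scaled to a common median, beside 66.3%, 53.1% and 48.6% of all tested genes. This common-median scaling set the median, over genes, of each library's log2 ratios to the gene means to 0. It moved the median of all tested genes from 0.10 to -0.0083. Without S37 the median was -0.16 beside -0.0039 over all tested genes, 29 of the 31 were below 0 beside 50.9% of all tested genes, and 1 gene passed, EPAS1, which was lower in NRP2-high. In that fit 0.578% of all tested genes passed, and 0.388% passed with NRP2-high lower. These are bulk samples, so fewer cells of a kind and less RNA per cell cannot be told apart.

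**Figure D1:**
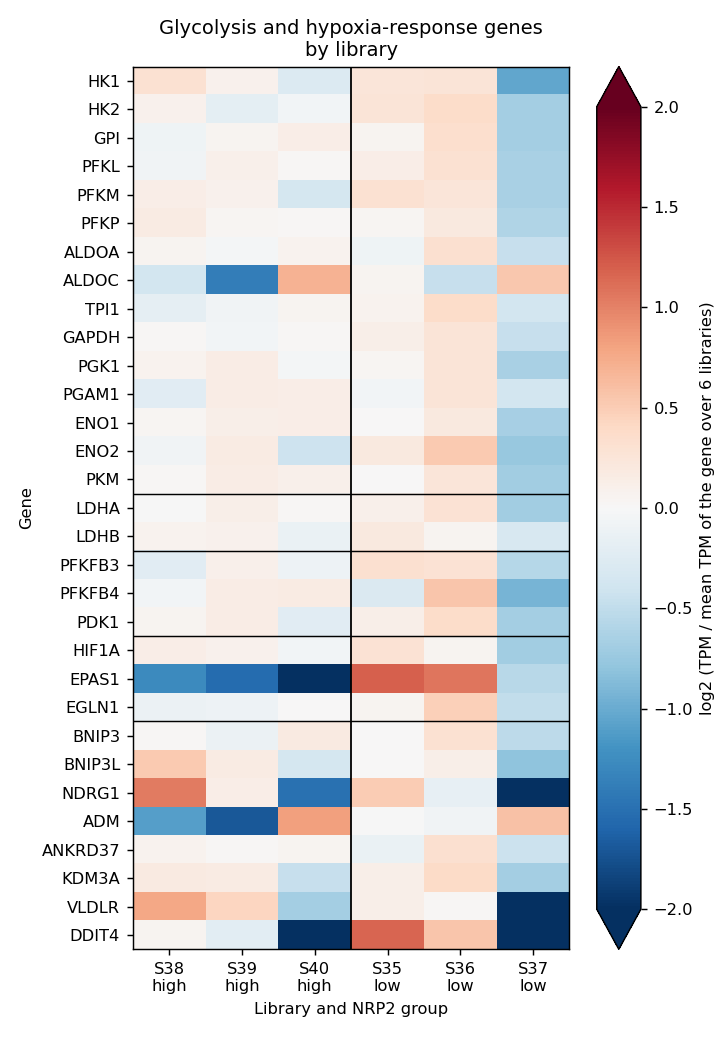
Each row is 1 of the 31 tested genes and each column a library, with the log2 ratio of its TPM to the gene's mean over the 6 libraries as colour (red higher, blue lower), grouped by role. S37 is the lowest library in 28 of the 31 rows, and EPAS1 is the row in which the groups separate.

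Glycolytic enzymes held the highest levels of the set, and the 3 most abundant differed less between the groups than the NRP2-low libraries differed among themselves. GAPDH, which oxidises glyceraldehyde phosphate, was at 4336, 4146 and 4380 TPM in NRP2-high and at 4644, 5118 and 3107 TPM in NRP2-low. ENO1, the main enolase, was at 2364, 2487 and 2527 TPM against 2317, 2630 and 1454 TPM. LDHA, the muscle-type subunit of lactate dehydrogenase, was at 1523, 1667 and 1559 TPM against 1655, 1878 and 948 TPM. In all 3 genes the NRP2-high libraries fell between the S37 value and the S36 value, so the groups overlapped. Together GAPDH, ENO1 and LDHA made up 68.4% to 70.1% of the TPM of the 17 enzyme genes in every library, S37 included.

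None of the 17 enzyme genes passed the test or had an unadjusted p under 0.05, and their log2 fold changes lay between -0.15 (ALDOC) and 0.25 (ENO1). The summed TPM of the 17 was 12024 ± 267 in NRP2-high and 11486 ± 3112 in NRP2-low (SD, n = 3). It took 1.17%, 1.21% and 1.22% of all TPM in NRP2-high and 1.24%, 1.41% and 0.803% in NRP2-low. S37 was thus the lowest library and the other NRP2-low libraries were the highest. When mitochondrially encoded genes were left out of the total, the shares were 1.32%, 1.44% and 1.504% in NRP2-high and 1.44%, 1.66% and 1.16% in NRP2-low, with S37 still lowest.

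**Figure D2:**
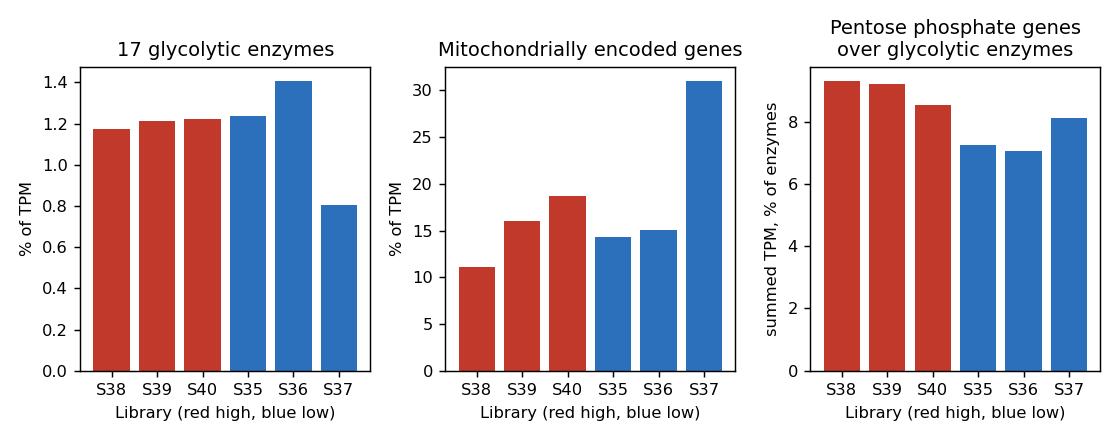
Bars give, for each library (red NRP2-high, blue NRP2-low), the percent of TPM in the 17 enzyme genes on the left, the percent in mitochondrially encoded genes in the middle, and on the right the summed TPM of 7 pentose phosphate genes as a percent of that of the 17 enzyme genes. S37 has the lowest enzyme share, 0.803%, and the highest mitochondrial share, 31.0%.

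Among the early steps, the hexokinases HK1 and HK2 trap glucose as glucose phosphate. HK1 was at 184, 157 and 123 TPM in NRP2-high and at 175, 178 and 72.1 TPM in NRP2-low. HK2, the isoform often raised in tumours, was at 55.1, 45.0 and 49.8 TPM against 62.1, 66.7 and 32.3 TPM. Without S37 its groups did not overlap, with a log2 fold change of -0.36 (limma, 95% interval -0.68 to -0.05, adjusted p = 0.582). GPI, the isomerase of the next step, was at 77.2, 85.4 and 89.7 TPM against 84.8, 104 and 51.1 TPM.

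Phosphofructokinase, the committed step, has 3 subunit genes, and the platelet type PFKP was the most abundant. PFKP was at 175, 159 and 158 TPM in NRP2-high and at 160, 178 and 103 TPM in NRP2-low. PFKM, the muscle type, ranged from 19.4 to 37.5 TPM over the 6 libraries and PFKL, the liver type, from 13.2 to 25.5 TPM. The order PFKP, PFKM, PFKL held in each library, and the ratio of PFKP to PFKL was 7.89 ± 0.89 in NRP2-high and 7.29 ± 0.45 in NRP2-low (SD, n = 3, two-sided exact permutation test p = 0.5).

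In the middle and lower steps, TPI1, which interconverts the triose phosphates, was at 874, 937 and 1031 TPM in NRP2-high and at 1044, 1279 and 771 TPM in NRP2-low. Its NRP2-high libraries all lay below S35 and S36 and above S37. PGAM1, the phosphoglycerate mutase, was at 621, 800 and 796 TPM against 701, 869 and 562 TPM. PKM, the pyruvate kinase gene of most dividing cells, was at 895, 976 and 951 TPM against 888, 1045 and 542 TPM. In both genes S37 was the lowest and S36 the highest library. PGK1, which makes the first ATP of the pathway, ranged from 289 to 542 TPM. ENO2, the neuronal enolase, was at 40.9, 48.5 and 32.5 TPM against 49.5, 62.0 and 25.4 TPM.

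ALDOA, the muscle-type aldolase, was read at only 9.39 to 16.1 TPM, far below its neighbours in the pathway. In the annotation 42.3% of the exonic bases of ALDOA also belong to another gene on the same strand, AC093512.2, so counting could leave reads out or split them, and the ALDOA level is uncertain. LDHB, the heart-type subunit, was at 29.9 to 42.3 TPM and shares 33.4% of its exonic bases with AC010197.2 in the same way. ALDOC, the brain-type aldolase, had 0.44 to 1.83 TPM from 122 reads in all. GAPDH and several other enzymes have processed pseudogenes, and how reads shared with them were counted is not given in the sources used here.

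The regulatory kinases did not pass the test either. PFKFB3, which makes the activator of phosphofructokinase, was at 69.4, 86.8 and 75.5 TPM in NRP2-high and at 101, 98.9 and 54.5 TPM in NRP2-low. Its log2 fold change was -0.09 with all libraries and -0.37 without S37 (limma, 95% interval -0.69 to -0.06, adjusted p = 0.552). PFKFB4, a related kinase, ranged from 5.11 to 14.3 TPM, and PDK1, which inhibits pyruvate dehydrogenase, from 5.71 to 11.7 TPM. In both, S37 was the lowest and S36 the highest library.

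EPAS1 was the gene of the set that separated the groups. EPAS1 (ENSG00000116016.13, chromosome 2, 46293667 to 46386703, plus strand, GRCh38) encodes HIF-2 alpha, the HIF subunit known from endothelium and kidney cancer. It was at 7.69, 6.38 and 2.94 TPM in NRP2-high and at 42.8, 39.1 and 12.7 TPM in NRP2-low. Every NRP2-low library, S37 included, was above every NRP2-high library. These levels rest on 307, 256 and 132 reads in NRP2-high and on 2442, 1667 and 516 reads in NRP2-low. The means were 5.67 ± 2.45 and 31.5 ± 16.4 TPM (SD, n = 3), with a log2 fold change of -2.19 (SE 0.47, limma, adjusted p = 0.109).

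With S37 left out the EPAS1 log2 fold change was -2.73 (95% interval -3.55 to -1.91, limma, adjusted p = 0.0374), which passed the threshold. With each of the other 5 libraries left out the adjusted p did not pass and reached up to 0.388, and the log2 fold change stayed between -2.73 and -1.85 over all 6 omissions. With mitochondrial genes left out it was -2.31 (limma, adjusted p = 0.0551). Groups that do not overlap with NRP2-high lower were seen in 3.14% of all tested genes, and among the 31 genes in EPAS1 alone. In the opposite direction they were seen in 8.83% of all tested genes and in 0 of the 31.

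HIF1A (ENSG00000100644.16, chromosome 14, 61695513 to 61748258, plus strand, GRCh38), which encodes HIF-1 alpha, did not show this pattern. It was at 282, 274 and 249 TPM in NRP2-high and at 317, 269 and 160 TPM in NRP2-low, so the groups overlapped. Its log2 fold change was 0.16 (95% interval -0.40 to 0.72, limma, adjusted p = 0.920). The within-library ratio of EPAS1 to HIF1A, which no scaling of a library alters, was 0.0272, 0.0233 and 0.0118 in NRP2-high and 0.135, 0.145 and 0.0791 in NRP2-low. The NRP2-high ratio was lower in 3 of 3 libraries than in any NRP2-low library. A two-sided exact permutation test gave p = 0.1, the smallest that 3 against 3 allows, and 0.56 after Benjamini-Hochberg adjustment over 7 ratios of related genes. The other 6 ratios (HK1 to HK2, LDHA to LDHB, ENO1 to ENO2, PFKFB3 to PFKFB4, and PFKP to PFKL and to PFKM) had exact p-values of 0.2 to 0.7.

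EGLN1, the main prolyl hydroxylase, was at 43.2, 43.9 and 47.0 TPM in NRP2-high and at 48.8, 65.2 and 33.4 TPM in NRP2-low. Its log2 fold change was -0.08 with all libraries and -0.33 without S37 (limma, adjusted p = 0.772). EGLN3, a prolyl hydroxylase gene that HIF induces, had 5 reads over the 6 libraries. The carbonic anhydrase genes CA9 and CA12, which HIF induces in many tumour cells, had 9 and 6 reads. All 3 stayed below 0.5 TPM in each library and were not tested, and no difference could be detected at this depth.

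**Figure D3:**
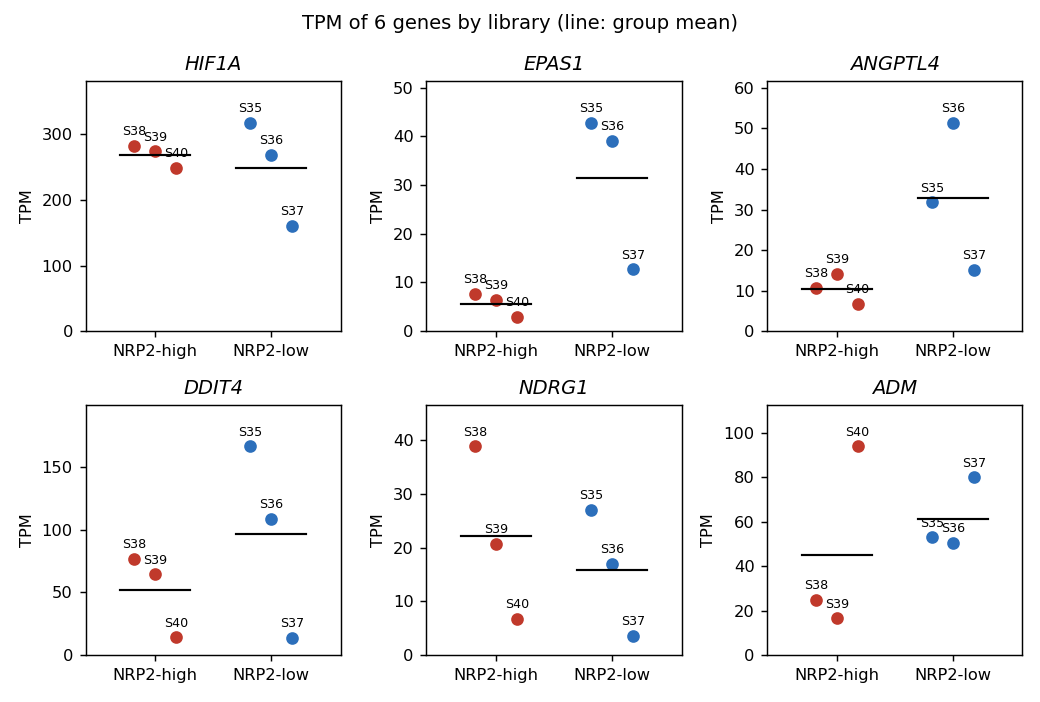
TPM in each library (points, with the library number) and the group mean (line) of HIF1A, EPAS1 and 4 HIF target genes, each panel on its own linear axis from 0. EPAS1 and ANGPTL4 have no overlap between the groups. In every panel but ADM, S40 is the lowest NRP2-high library and S37 the lowest NRP2-low library. In DDIT4 and NDRG1 the values of S40 and S37 are the lowest of all.

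None of the 8 tested HIF targets passed the test, and 4 of them (DDIT4, NDRG1, VLDLR and ADM) ranged widely among the libraries of a group. DDIT4, an inhibitor of mTORC1 signalling, was at 76.8, 64.2 and 13.9 TPM in NRP2-high and at 166, 109 and 13.4 TPM in NRP2-low. NDRG1, a stress-induced gene used as a hypoxia marker, was at 38.8, 20.7 and 6.74 TPM against 26.9, 16.97 and 3.60 TPM. VLDLR, a lipoprotein receptor, was at 6.37, 4.97 and 2.32 TPM against 3.999, 3.78 and 0.81 TPM. In these 3 genes S40 was the lowest NRP2-high library and S37 the lowest NRP2-low library. The same order within the groups was seen in EPAS1, HIF1A, HK1, BNIP3L and KDM3A, among others. S40 and S37 had the highest mitochondrial shares of their groups, 18.7% and 31.0%, and the part of this in the low values was not tested.

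ADM, which encodes the vasodilator adrenomedullin, went the other way. It was at 24.8, 16.5 and 94.0 TPM in NRP2-high and at 52.9, 50.5 and 80.0 TPM in NRP2-low, so S40 and S37 were the highest libraries. Its log2 fold change was -0.80 (95% interval -2.04 to 0.44, limma, adjusted p = 0.875), and -1.52 without S40 (limma, adjusted p = 0.081). For DDIT4 it was -0.60 (95% interval -2.70 to 1.49), and -1.68 without S37 (95% interval -3.34 to -0.02, limma, adjusted p = 0.679). DDIT4 shares 41.2% of its exonic bases with its antisense gene DDIT4-AS1, and without strand in the counting the reads of both cannot be told apart.

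The groups overlapped in the remaining HIF targets, with and without S37. BNIP3 and BNIP3L, which mark mitochondria for removal, were at 35.9 to 63.4 TPM and 85.1 to 215 TPM over the 6 libraries. BNIP3L had a log2 fold change of 0.34 with all libraries and 0.05 without S37. KDM3A, a histone demethylase, ranged from 10.4 to 21.6 TPM. ANKRD37 ranged from 1.81 to 3.05 TPM on 228 reads, and 35.2% of its exonic bases overlap UFSP2 on the other strand.

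The sign of most of the 31 log2 fold changes depended on library S37. It was the lowest library in 28 of them, beside 53.3% of all tested genes, and ALDOC, ADM and EPAS1 were the exceptions. S36 was the highest in 19 and S35 in 6. The ratio of S37 to the mean of S35 and S36 had a median of 0.547 over the 31 genes and of 0.765 over all tested genes, and it ran from 0.0975 for DDIT4 to 1.65 for ALDOC. With mitochondrial genes left out of the total, S37 was lowest in 21 of the 31, beside 31.0% of all tested genes, and the median ratios were 0.676 and 0.945. The mitochondrial share of S37, its lower read total and its low values in these genes come from 1 library, and their part in each other was not tested.

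Without S37 all 17 enzyme genes had log2 fold changes below 0, from -0.46 (ENO2) to -0.006 (ENO1), with a median of -0.16. With all libraries 12 of the 17 were above 0 with TPM as deposited, 8 with mitochondrial genes left out and 7 after common-median scaling. Without S37 the groups did not overlap, NRP2-high lower, in 10 of the 31 genes (HK2, PFKL, PFKM, TPI1, GAPDH, ENO2, PFKFB3, EPAS1, EGLN1 and DDIT4), beside 11.4% of all tested genes. In the opposite direction, also without S37, this held for 0 of the 31, beside 10.8%. Of the 10, EPAS1 passed the test in limma, and 4 of the 31 genes (EPAS1, HK2, PFKFB3 and DDIT4) had an unadjusted p under 0.05, beside 7.24% of all tested genes. Leaving out S37 leaves 2 NRP2-low libraries, whose spread is then taken with that of the other group.

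**Figure D4:**
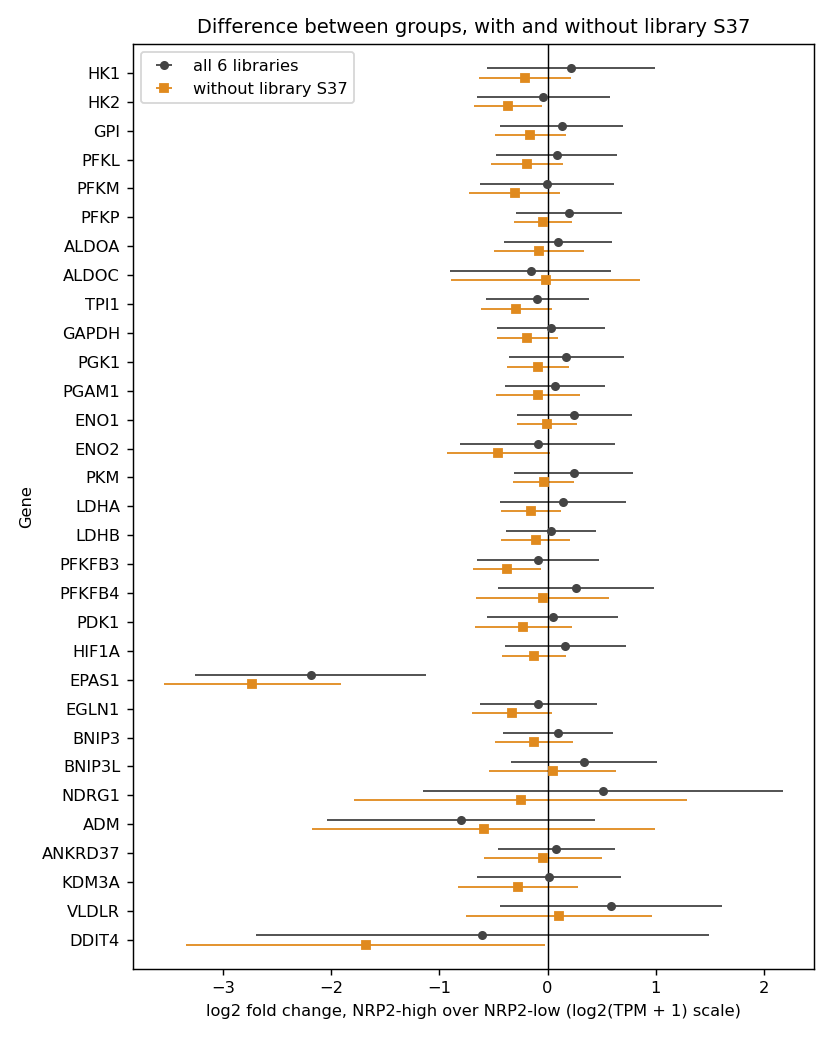
Points give the log2 fold change of each tested gene, NRP2-high over NRP2-low on the log2(TPM + 1) scale, with 95% limma intervals, from all 6 libraries (grey circles) and without S37 (orange squares). Without S37 the points move left except for ALDOC and ADM, and the EPAS1 interval lies below 0 in both fits.

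The promoters of the set were compared for the core of the HIF binding motif, ACGTG or GCGTG. Both strands were searched in RefSeq windows of the 250 bases before each gene's start (GRCh38.p14). Windows were found for 32 of the 34 genes; NDRG1 and BNIP3L are the others. ACGTG was in 21 of the 56 windows of these genes (37.5%) and in 18.5% of all 35116 windows. GCGTG was in 37.5% and 32.2%, and either in 62.5% and 43.2%. CACGTG, in which ACGTG reads on both strands, was in 14.3% and 6.34%. Windows of 1 gene overlap, and a match is a run of letters and not a bound site. The set includes genes chosen as known HIF targets, so these shares describe that choice and not the NRP2 groups. Base composition was not matched. The following 150 bases, from 210 to 61 before the start, show genes described here with several matches, a single match or no match to ACGTG, 5′ to 3′ on the gene's strand, with ACGTG and its reverse complement CACGT in capitals and GCGTG left in lower case.
LDHA, chr11:18394353-18394502, plus strand: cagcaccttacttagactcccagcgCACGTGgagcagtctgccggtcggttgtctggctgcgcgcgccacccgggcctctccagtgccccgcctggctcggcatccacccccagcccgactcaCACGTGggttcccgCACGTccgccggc
PGK1, chrX:78104038-78104187, plus strand: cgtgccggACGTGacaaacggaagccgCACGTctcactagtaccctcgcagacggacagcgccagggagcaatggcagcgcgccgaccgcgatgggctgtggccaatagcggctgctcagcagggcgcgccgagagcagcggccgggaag
ANKRD37, chr4:185396631-185396780, plus strand: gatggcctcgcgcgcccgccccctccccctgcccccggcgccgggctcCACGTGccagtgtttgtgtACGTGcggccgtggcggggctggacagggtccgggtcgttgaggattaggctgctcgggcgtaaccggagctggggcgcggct
DDIT4, chr10:72273714-72273863, plus strand: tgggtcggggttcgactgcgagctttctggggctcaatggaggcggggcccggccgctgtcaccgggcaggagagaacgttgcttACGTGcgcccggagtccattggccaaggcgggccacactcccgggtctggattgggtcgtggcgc
EPAS1, chr2:46297197-46297346, plus strand: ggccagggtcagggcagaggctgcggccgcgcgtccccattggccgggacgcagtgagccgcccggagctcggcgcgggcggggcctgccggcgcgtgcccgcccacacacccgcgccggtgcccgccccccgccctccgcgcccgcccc
LDHA, the largest lactate dehydrogenase gene by level, holds 5 matches, with each CACGTG counted on both strands. Where a gene had more than 1 window, the first with an ACGTG match in this stretch was printed. LDHA had 2 windows. EPAS1, which had the log2 fold change furthest from 0 among the 31 tested genes, holds GCGTG but no ACGTG in this stretch.

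Genes that feed or drain the pathway were read from lists of related genes. The pentose phosphate route, which diverts glucose phosphate to NADPH and ribose, had 0 of 7 genes past the test in limma and 2 with an unadjusted p under 0.05, PGLS among them. PGLS, the lactonase of the route, was at 12.8, 11.95 and 14.9 TPM in NRP2-high and at 8.99, 9.51 and 9.32 TPM in NRP2-low, with a log2 fold change of 0.46 (limma, adjusted p = 0.589). PGD, the dehydrogenase of the third step, was at 405, 416 and 416 TPM against 315, 385 and 224 TPM. In 5 of the 7 genes, PGLS, PGD, TKT and TALDO1 among them, every NRP2-high library was above every NRP2-low library, beside 8.83% of all tested genes with S37 and 10.8% without it. RPIA, an isomerase of the route named after its values were seen, was at 72.7, 71.9 and 74.7 TPM in NRP2-high and at 79.7, 79.2 and 70.1 TPM in NRP2-low. Without S37 it was the 1 gene of the 7 with NRP2-high lower and no overlap, beside 11.4% of all tested genes. The median log2 fold change of the 7 was 0.46 with all libraries and 0.24 without S37.

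The summed TPM of the 7 pentose phosphate genes was 9.30%, 9.19% and 8.52% of that of the 17 enzyme genes in NRP2-high and 7.24%, 7.07% and 8.10% in NRP2-low. The groups did not overlap in this ratio, and S37 was the NRP2-low library nearest to NRP2-high. PGLS and TKT were named after their values were seen.

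In the transport list 0 of 5 tested genes passed in limma and 0 had an unadjusted p under 0.05. BSG, the chaperone of the lactate transporters, was at 395, 415 and 379 TPM in NRP2-high and at 370, 401 and 291 TPM in NRP2-low. SLC16A1, a lactate transporter, was at 202, 179 and 173 TPM against 239, 226 and 147 TPM. The median log2 fold change of the list was 0.08 with all libraries, -0.03 after common-median scaling and -0.19 without S37.

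In the pyruvate dehydrogenase list 0 of 11 tested genes passed in limma and 0 had an unadjusted p under 0.05. All 11 were above 0, with a median of 0.23, beside 66.3% and a median of 0.10 over all tested genes. After common-median scaling DLAT was at -0.0010 and the other 10 were above 0, beside 48.6% of all tested genes. Without S37, 10 of the 11 were above 0, with a median of 0.17, beside 49.1% and a median of -0.0039 over all tested genes. DLAT, the acetyltransferase subunit, was at 89.2, 95.1 and 101 TPM in NRP2-high and at 92.8, 105 and 70.0 TPM in NRP2-low. MPC2, part of the carrier that brings pyruvate into mitochondria, was at 76.3, 76.4 and 106 TPM against 60.4, 70.2 and 77.6 TPM. Of 8 tested genes of glycolysis isoenzymes and related enzymes outside the 34 genes, 0 passed and 0 had an unadjusted p under 0.05. Their median log2 fold change was 0.13. That median was 0.024 after common-median scaling, 0.052 with mitochondrial genes left out, 0.058 with no filter on low values and 0.070 without S39. ADPGK and MINPP1 had log2 fold changes of -0.05 and 0.13.

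Of the other HIF machinery, 0 of 9 tested genes passed in limma and 0 had an unadjusted p under 0.05, with a median of 0.0028, which was -0.10 after common-median scaling. VHL, the ubiquitin ligase subunit that recognises hydroxylated HIF, was at 109, 103 and 85.5 TPM in NRP2-high and at 138, 135 and 79.0 TPM in NRP2-low. ELOB, its partner, had a log2 fold change of -0.09.

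Of 26 further HIF targets tested, 0 passed in limma and 1, ANGPTL4, had an unadjusted p under 0.05. ANGPTL4, a secreted inhibitor of lipoprotein lipase named here after its values were seen, was at 10.7, 14.2 and 6.75 TPM in NRP2-high and at 31.7, 51.4 and 15.1 TPM in NRP2-low. Every NRP2-low library was above every NRP2-high library, though S37 at 15.1 TPM and S39 at 14.2 TPM were close. Its log2 fold change was -1.44 (95% interval -2.40 to -0.49, limma, adjusted p = 0.342), and -1.90 without S37 (limma, adjusted p = 0.0952). PLOD2, a collagen lysyl hydroxylase, and BHLHE40, a transcriptional repressor, had log2 fold changes of 0.07 and 0.46. The median of the 26 was 0.03 with all libraries, -0.08 after common-median scaling and -0.12 without S37.

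Of 34 tested mitochondrially encoded genes, 0 passed in limma and 1, MT-TC, had an unadjusted p under 0.05. MT-TC, named after its values were seen, had 5 reads over the 6 libraries. Several other short genes of the list also had few reads. The median log2 fold change of the 34 genes was -0.30 with all libraries and 0.13 without S37, and MT-CO1 and MT-ATP6 had -0.34 and -0.27.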

How the data were processed

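RNA of 6 libraries from sorted PC3 cells, 3 NRP2-high and 3 NRP2-low, was measured by sequencing. The authors deposited TPM values for 27958 genes, 1 column per library; each column has the same sum. Per the submitters' processing notes, featureCounts 1.5.2, DESeq2 1.20.0 and hg38 (GRCh38.p12) were used, with no role or order given. The sources used here give no aligner, strandedness or handling of shared reads. All 27958 gene identifiers occur in GENCODE release 29, which supplied exon overlaps.

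Libraries were grouped by the word High or Low in the column name. The S numbers occur in no label, so replicate numbers could not be attached. No label ties the libraries of a group to independent sorts or cultures, and p-values therefore cover the spread of these libraries alone, possibly a technical one. TPM times gene length, divided by the smallest non-zero value of the library, gave whole numbers for 100% of values at a tolerance of 0.001; these reads were used for depth only. 

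Genes that reached 1 TPM in 3 or more libraries were tested on log2(TPM + 1), which understates the change of low genes, with limma 3.58.1 in R 4.3.3 (lmFit, eBayes, trend on mean level, two-sided tests, Benjamini-Hochberg adjustment over all 15214 genes, threshold 0.05). The same genes were kept when a library was left out. Ratios within libraries were compared by exact permutation (scipy 1.17.1). The procedure was tested on simulated data. Alternatives were a pseudocount of 0.1, no filter, no variance trend, TPM rescaled without mitochondrially encoded genes, and each library left out. A further alternative, common-median scaling, subtracted from each library the median, over genes, of its log2 ratios to the gene means. The genes and lists were chosen with earlier results of these data known. The text names all 34 genes, NRP2, and from each other list the genes past the threshold and the 2 with the highest mean TPM; any other gene is said to be named after its values were seen. Promoter sequences are from RefSeq (GRCh38.p14). Some genes of the lists are not reported here by name.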

Additional observations from a re-analysis of the deposited data

How the results depend on the processing

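No paired analysis was possible because the S numbers of the columns are absent from the labels. The number of genes past the threshold was 127, and fell to 74 with no filter on low values and to 93 with a pseudocount of 0.1. It rose to 152 after common-median scaling, 156 with mitochondrial genes left out and 154 with no variance trend. With 1 library left out it lay between 43 (without S36) and 97. The number of the 31 genes past the threshold was 0 in every alternative except without S37, where it was 1, EPAS1. Their median log2 fold change was -0.027 after common-median scaling and -0.0014 with mitochondrial genes left out, and lay between -0.16 and 0.24 with 1 library left out. Those above 0 numbered 12 after the scaling and 2 to 27 with 1 library left out. Of the 31, 27 changed sign in at least 1 alternative; EPAS1, BNIP3L, ADM and VLDLR did not. A pseudocount of 0.1 and no variance trend reversed none of these genes or medians, while NRP2 then missed the threshold (limma, adjusted p = 0.0565 and 0.0502; 0.176 with no filter). With common-median scaling and with mitochondrial genes left out, in that order, log2 fold changes reversed to -0.024 and -0.0014 for PFKL, -0.076 and -0.060 for GAPDH, -0.038 and -0.022 for PGAM1, -0.075 and -0.057 for LDHB, -0.060 and -0.031 for PDK1, -0.090 and -0.068 for KDM3A, and -0.034 and -0.017 for PLOD2. Under the scaling alone they reversed to -0.0100 for ALDOA, -0.010 for BNIP3, -0.027 for ANKRD37 and -0.0010 for DLAT. Medians reversed under both to -0.10 and -0.087 for the HIF machinery and to -0.080 and -0.054 for the further HIF targets, and under the scaling to -0.028 for transport. With 1 library left out, medians lay between -0.19 and 0.21 for transport, -0.094 and 0.089 for the HIF machinery, -0.12 and 0.19 for the further HIF targets, and -0.57 and 0.13 for mitochondrial genes. Ranges over the 6 omissions that crossed 0 were, for the 31 genes, HK1 -0.21 to 0.44, HK2 -0.36 to 0.15, GPI -0.16 to 0.35, PFKL -0.19 to 0.26, PFKM -0.30 to 0.16, PFKP -0.039 to 0.35, PFKFB3 -0.37 to 0.065, PFKFB4 -0.046 to 0.62, ALDOA -0.080 to 0.28, ALDOC -0.42 to 0.073, TPI1 -0.29 to 0.076, GAPDH -0.19 to 0.17, PGK1 -0.091 to 0.36, PGAM1 -0.088 to 0.22, ENO1 -0.0060 to 0.42, ENO2 -0.46 to 0.17, PKM -0.036 to 0.44, LDHA -0.16 to 0.34, LDHB -0.11 to 0.14, PDK1 -0.22 to 0.24, HIF1A -0.12 to 0.37, EGLN1 -0.33 to 0.14, BNIP3 -0.12 to 0.28, NDRG1 -0.25 to 1.15, ANKRD37 -0.042 to 0.22, KDM3A -0.27 to 0.22, DDIT4 -1.68 to 0.15. For other genes they were ADPGK -0.19 to 0.083, SLC16A1 -0.33 to 0.018, DLAT -0.058 to 0.23, PLOD2 -0.24 to 0.27, MT-CO1 -0.59 to 0.037, MT-ATP6 -0.43 to 0.043, VEGFA -0.25 to 0.20; VEGFA, a HIF target, was added after its values were seen. The cause was not tested. Depth limits EGLN3, CA9 and CA12, with at most 9 reads each.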
